A study of Canis lupus familiaris with 16 samples.

Results

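The 8 small noncoding RNA genes described here are 1 spliceosomal RNA (snRNA) entry, LOC119873485, and 7 small nucleolar RNA (snoRNA) entries, LOC119866291, LOC119874346, LOC119869901, LOC119866496, LOC119872409, LOC119867575 and LOC119873834. They were selected on their readout in these libraries, as entries with high levels in perivascular wall tumors (PWT), and are 8 of 1672 entries annotated as snRNA, snoRNA or guide RNA among 41818 genes in the count table. All 8 passed the filter on low counts (at least 10 counts in at least 4 tumors), as did 325 of the 1672 entries and 15408 genes in all. Because the choice used the contrast of PWT with the other tumors, their levels in that contrast are a description and carry no test.

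The samples were 16 formalin-fixed, paraffin-embedded soft tissue sarcomas of dogs, with RNA sequenced after depletion of ribosomal RNA. By molecular identity they comprised 4 fibrosarcomas (FS) from dogs aged 9 to 13 years, 6 peripheral nerve sheath tumors (PNST) from dogs aged 8 to 13 years and 6 PWT from dogs aged 2 to 14 years. The labels give no treatment for any group. Molecular identity differed from the histological diagnosis for S1-10, a PNST read as PWT by histology, and S2-08, a PWT read as FS by histology. The study reassigned both tumors from their expression in these same libraries, so the groups are not independent of the counts. S1-04 and S1-05, both PNST, carry identical labels and could be from 1 dog. Tumor names start with S1 (9 tumors, each sequenced in 3 runs that were summed) or S2 (7 tumors, 1 run each), and 5 of the 6 PWT are S2 against 2 of the other 10 tumors. Type and prefix are therefore nearly confounded. Counts on genes ranged from 507728 in S1-12 to 4311876 in S1-03. As to the labelled type, 13 of 13 mural cell markers (pericyte and smooth muscle genes such as PDGFRB, RGS5 and NOTCH3) were measurable. Their summed level was 652 to 1291 CPM (counts scaled to a common library total) in PWT, with a median of 736. It was 601 to 1348 in PNST (median 1062) and 1051 to 2455 in FS (median 1871). In PWT against the other tumors their median log2 fold change was -0.83, with 1 of 13 above 0. In that contrast 0 of 13 passed the edgeR test (3 at an unadjusted p under 0.05, 0 by DESeq2). The summed level of 8 fibroblast markers was 9610 to 22342 CPM in PWT, 17937 to 99867 in FS and 16157 to 36693 in PNST. Their median log2 fold change in PWT was -0.84, with 2 of 8 above 0. By edgeR 1 of 8, COL1A1, a chain of type I collagen, fell in PWT (log2 fold change -2.03, SE 0.52, adjusted p 0.0458). In the same contrast 3 of 8 had an unadjusted p under 0.05, and DESeq2 called 2 lower. Reads outside annotated genes took 48.2% to 66.7% of all rows in PWT and 41.8% to 57.5% in the other types, and the part of either in the levels below was not tested.

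Small nuclear RNAs assemble with proteins into the spliceosome, which removes introns from precursor mRNA. Small nucleolar RNAs guide the chemical modification of ribosomal and spliceosomal RNA: box C/D snoRNAs direct methylation of the ribose and box H/ACA snoRNAs direct pseudouridylation. In mammals most snoRNAs lie in introns of host genes and are released from the spliced intron, whereas the abundant spliceosomal RNAs are mostly transcribed from genes of their own that exist in several near-identical copies. Neither class has a poly(A) tail, so their recovery in a library depends on how RNA was enriched and which lengths were kept.

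In the RefSeq annotation of the UU_Cfam_GSD_1.0 assembly, used here for names, lengths and neighbors only, 7 of the 8 entries lay within a host gene. A host was any protein-coding or long noncoding RNA gene whose span held the entry, and strand and introns were not checked. LOC119866291 (97 bases) lies in AP1B1, a subunit of the clathrin adaptor complex, and LOC119869901 (84 bases) in RPL13A, a protein of the large ribosomal subunit. LOC119866496 (136 bases) lies in KANSL2, a subunit of a histone acetyltransferase complex, and LOC119873834 (71 bases) in ATP5F1B, the beta subunit of mitochondrial ATP synthase. LOC119874346 (70 bases) and LOC119872409 (84 bases) lie in the long noncoding RNA genes LOC100688055 and LOC102156785. LOC119867575 (69 bases) lies in LOC119867461, an uncharacterized protein-coding gene beside SEMA5A. LOC119873485 (191 bases) has no host gene and lies next to another snRNA entry, LOC119876683. There are 26 snRNA entries of 191 bases, of which 11 were tested, and their sequences were not compared. Reads whose alignment was not unique were left out of the counts on genes, so any that fit several copies are missing. The level of LOC119873485 as a single locus is therefore uncertain. A read from unspliced host RNA across a snoRNA and a read from the mature snoRNA cannot be told apart in these counts.

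LOC119873485 had the highest ratio of mean levels in PWT to the other tumors among the 8, carried by the S2 PWT. Its level in PWT was 9.12 CPM in S1-07, 29.1 in S2-03, 51.6 in S2-04, 96.2 in S2-08, 76.9 in S2-09 and 19.4 in S2-11, with CPM scaled by the trimmed mean of M values (TMM). In FS it was 6.45 CPM in S1-02, 6.03 in S1-11, 1.84 in S1-12 and 6.65 in S2-06, and in the 6 PNST it ran from 4.35 to 9.11 with a median of 7.48. All 5 S2 PWT stood above every other tumor, whereas S1-07, the single S1 PWT, was level with the highest PNST, S1-04, and fell below it when CPM was taken from total counts without TMM (7.95 against 9.61). The mean was 47.0 ± 34.2 CPM in PWT (SD, n = 6), 5.24 ± 2.28 in FS (n = 4) and 6.92 ± 1.98 in PNST (n = 6), a 7.52-fold ratio of PWT to the other 10 tumors. Within the S2 tumors the ratio was 7.84 (5 PWT against 2 others), and S1-07 was 1.5-fold above the mean of the other 8 S1 tumors. Counts of LOC119873485 were 1 to 29 per FS or PNST, 16 in S1-07 and 26 to 176 per S2 PWT. The levels outside the S2 PWT thus rest on few reads. The neighboring snRNA entry LOC119875699 reached 150 CPM in S2-08, also the PWT with the most LOC119873485, but was at 2.85 to 30.2 CPM in the other 5 PWT and 1.84 to 42.9 in the remaining tumors.

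LOC119866291 ran from 64.5 CPM in S2-08 to 257 in S2-11 in PWT, with a median of 153. It was 34.4 CPM in S1-02, 9.87 in S1-11, 57.1 in S1-12 and 29.9 in S2-06 among the FS, and 16.9 to 66.1 in PNST (median 26.3). The groups overlapped by S2-08, which sat just under the highest PNST, S2-07, while the other 5 PWT were above all FS and PNST. The ratio of means was 4.91 over all tumors, 3.32 within S2 and 5.15 for S1-07 against the other S1 tumors.

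LOC119874346 and LOC119866496 were also highest in PWT, with smaller ratios. LOC119874346 was at 70.5 CPM in S2-08 and at 160 to 219 in the other 5 PWT, against 18.6 to 70.8 in FS and 28.0 to 84.1 in PNST. LOC119866496 was at 96.2 to 192 CPM in PWT, 21.4 to 42.4 in FS and 21.0 to 72.6 in PNST. All 6 PWT by molecular identity were thus above all 10 other tumors, with or without TMM. By histological diagnosis S1-10 (23.9 CPM) was a PWT and S2-08 (96.2 CPM) an FS, and PWT overlapped the others. The ratio for LOC119866496 was 3.30 over all tumors, 2.81 within S2 and 3.19 within S1. By molecular identity, every PWT exceeded every other tumor for LOC119866496 and, by the margin at S1-07 given above, LOC119873485. These are 2 of the 8 entries, and the same held for 0.467% of all genes tested (72 genes).

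LOC119869901 was the most abundant of the 8, both in CPM and per base of length. Its level in PWT was 9422 CPM in S1-07, 8711 in S2-03, 5911 in S2-04, 1936 in S2-08, 6012 in S2-09 and 7556 in S2-11. In FS it was 916 CPM in S1-02, 955 in S1-11, 3269 in S1-12 and 1160 in S2-06, and in PNST it ran from 1534 to 3116 with a median of 2014. S1-07 was the highest of all 16 tumors and S2-08 lay within the range of the FS and PNST. The PWT mean was 3.34-fold that of the other tumors, 2.83-fold within S2 and 4.88-fold for S1-07 within S1.

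LOC119872409 was lowest in FS, intermediate in PNST and highest in PWT by its medians. It was 115 CPM in S1-02, 162 in S1-11, 308 in S1-12 and 138 in S2-06 among the FS, 298 to 787 in PNST (median 680) and 286 to 2743 in PWT (median 1441). S2-08 (286 CPM) was at the level of the FS, whereas the other 5 PWT, at 989 CPM or more, were above every PNST. The ratio of PWT to the other tumors was 3.21, within S2 3.07 and within S1 4.02.

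LOC119867575 was low in PNST rather than high in PWT. It ran from 102 to 158 CPM in PWT (median 124), and was 88.6 in S1-02, 77.9 in S1-11, 169 in S1-12 and 109 in S2-06 among the FS. In 5 of the 6 PNST it was 17.9 to 35.0 CPM, and in S1-04 it was 116. No PWT stood above every other tumor, and the range of the PWT lay within that of the FS. The ratio of PWT to the other tumors pooled was 1.87, the smallest of the 8.

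LOC119873834 followed the prefix of the tumor name. In the 7 S2 tumors it was 16.9 CPM in S2-08, 29.1 in S2-07, 42.0 in S2-03, 43.2 in S2-04, 50.4 in S2-06, 59.7 in S2-09 and 105 in S2-11, and in the 9 S1 tumors it was 0.85 to 7.17. All S2 tumors were above all S1 tumors, whatever their type, a pattern found for 1 of the 8 entries and 0.480% of all genes tested (74 genes). S1-07, the S1 PWT, had 4.56 CPM and 2 other S1 tumors were higher. Counts were 2 to 22 per S1 tumor and 31 to 141 per S2 tumor, so the S1 levels rest on few reads. Across all tumors the PWT mean was 4.35-fold that of the others, but within S2 the ratio was 1.34 and within S1 1.48.

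**Figure D1:**
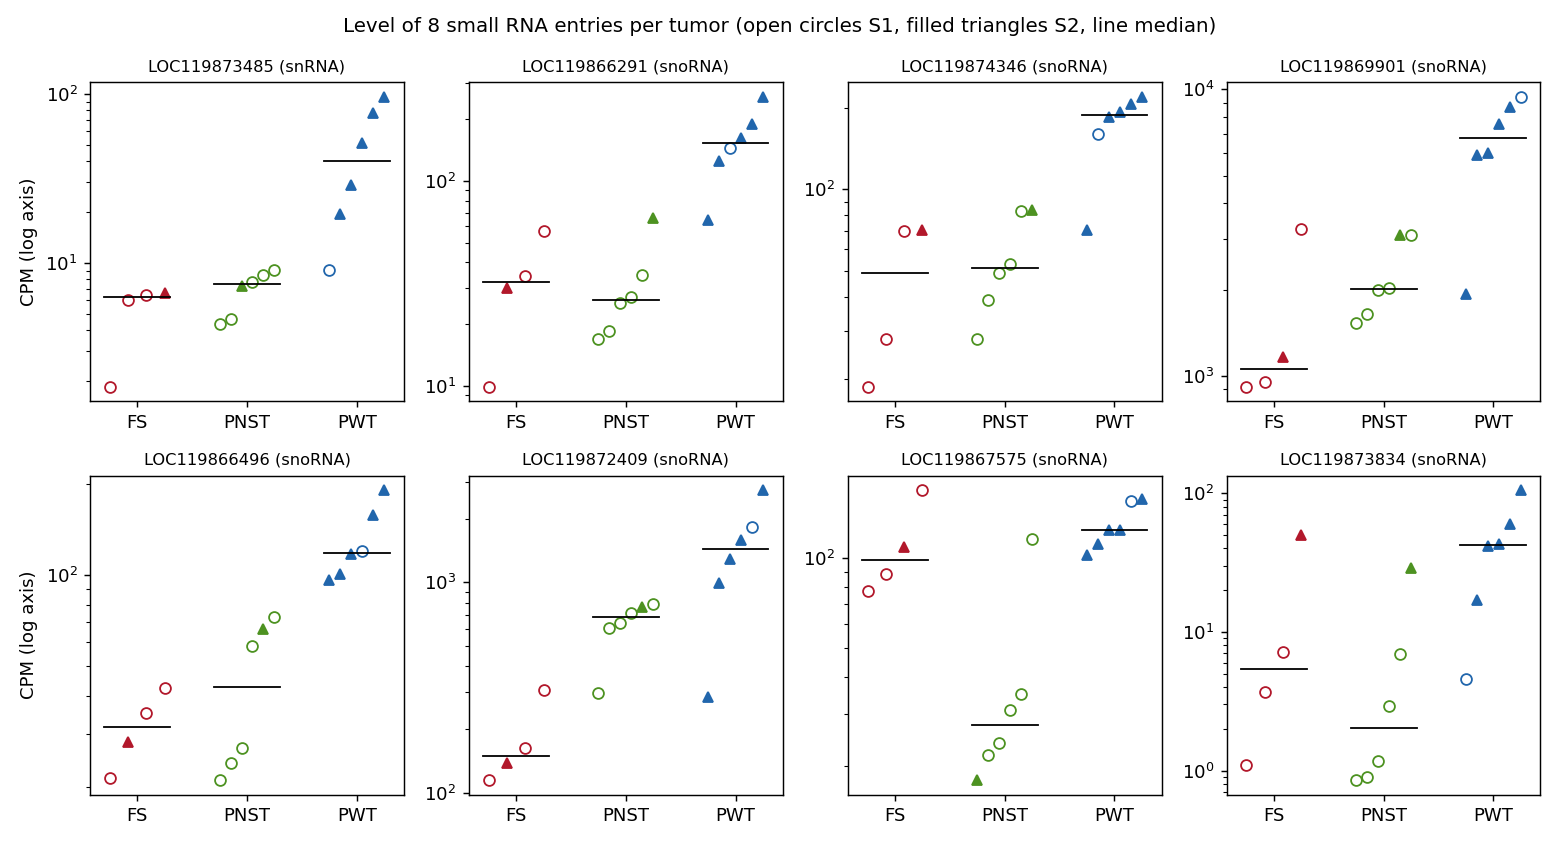
Level of each of the 8 entries in the 16 tumors, in CPM on a log axis, by molecular identity (FS, PNST, PWT). Open circles are S1 tumors, filled triangles S2 tumors and lines group medians. LOC119866496 is higher in all 6 PWT than in the other 10 tumors, LOC119867575 is low in 5 of 6 PNST, and LOC119873834 is high in all 7 S2 tumors.

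The 8 entries moved together unequally across the 16 tumors. Spearman's rho between pairs ran from 0.29 (LOC119867575 with LOC119872409) to 0.93 (LOC119866291 with LOC119866496, and LOC119869901 with LOC119872409). These points share libraries and scaling and are given as a description. S2-08, the tumor read as FS by histology, was the lowest PWT for LOC119866291, LOC119874346, LOC119869901, LOC119866496 and LOC119872409 and the highest PWT for LOC119873485. S1-04 exceeded S1-05, which has the same labels, for all 8 entries, by 1.95-fold (LOC119873485) to 5.92-fold (LOC119873834).

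In edgeR's quasi-likelihood fit of PWT against the other 10 tumors, the log2 fold change was 2.85 (SE 0.39) for LOC119873485, 2.31 (SE 0.35) for LOC119866291 and 2.10 (SE 0.80) for LOC119873834. It was 1.74 (SE 0.36) for LOC119869901, 1.72 (SE 0.29) for LOC119866496, 1.72 (SE 0.31) for LOC119874346, 1.68 (SE 0.47) for LOC119872409 and 0.92 (SE 0.42) for LOC119867575. Genes with a Benjamini-Hochberg adjusted p under 0.05 that changed by more than 1 on the log2 scale were called differentially expressed. Of the 8 entries, 5 were called higher, beside 1.41% of all genes (217 of 15408; 2.12% in either direction). DESeq2 called 6 of 8, adding LOC119872409, beside 2.69% of all genes. Since the entries were chosen on this contrast, nothing is read from these counts.

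With the S1/S2 prefix as a term in the same fit, the log2 fold change was 2.15 (SE 0.62) for LOC119873485, 2.00 (SE 0.40) for LOC119866291, 1.82 (SE 0.44) for LOC119869901, 1.77 (SE 0.59) for LOC119872409 and 1.56 (SE 0.37) for LOC119866496. It was 1.42 (SE 0.37) for LOC119874346, 1.04 (SE 0.55) for LOC119867575 and 0.46 (SE 0.59) for LOC119873834. In that fit 0 of 15408 genes were called by edgeR (0%), with 1633 at an unadjusted p under 0.05. DESeq2 was not run with this term. Grouped by histological diagnosis, the log2 fold change of LOC119873485 was 1.00 (SE 0.72), with S2-08 then counted among the FS, and that of the 8 entries had a median of 1.67, against 1.73 by molecular identity.

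Higher levels in PWT extended over the small RNA class. By molecular identity, entries annotated as snoRNA took 9.61% to 20.8% of the counts on genes in the 6 PWT. The share was 1.69% to 8.79% in FS and 4.39% to 9.21% in PNST, so PWT did not overlap the others. By histological diagnosis S1-10 (5.29%) was a PWT and S2-08 (9.61%) an FS, and PWT then overlapped the others. S1-07 stood at 14.1%, above the other 8 S1 tumors (1.69% to 8.79%), and the S2 tumors outside PWT stood at 6.36% (S2-06) and 9.21% (S2-07). Of 317 other small RNA entries tested, 108 rose in PWT and 0 fell, with a median log2 fold change of 1.26, against -0.08 over all genes. By class, 98 of 242 other snoRNA entries rose (40.5%, median 1.41), 6 of 58 other snRNA entries (10.3%, median 0.74) and 4 of 17 guide RNA entries (median 1.01). The shift was not confined to these classes. Tested miRNA entries had a median of 1.13, with 3 of 19 called higher and 0 lower by edgeR. Entries with a tRNA symbol had a median of 0.64, with 1 of 73 higher and 0 lower. With the prefix as a term these 2 medians were 1.04 and 0.20. Protein-coding genes had a median of -0.14, with 59 of 12766 higher and 108 lower. With the prefix as a term the median of the 317 entries was 1.08, with 0 called, and by histological diagnosis it was 1.05, with 0 called. Among the other entries with the smallest p, the snoRNA LOC119872069 was at 2549 ± 812 CPM in PWT and 529 ± 333 elsewhere (log2 fold change 2.27, SE 0.36, adjusted p 0.0120), and the guide RNA LOC119868659 at 66.7 ± 41.5 and 10.0 ± 7.37 (2.81, SE 0.44, adjusted p 0.0120; edgeR, SD over 6 and 10 tumors).

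**Figure D2:**
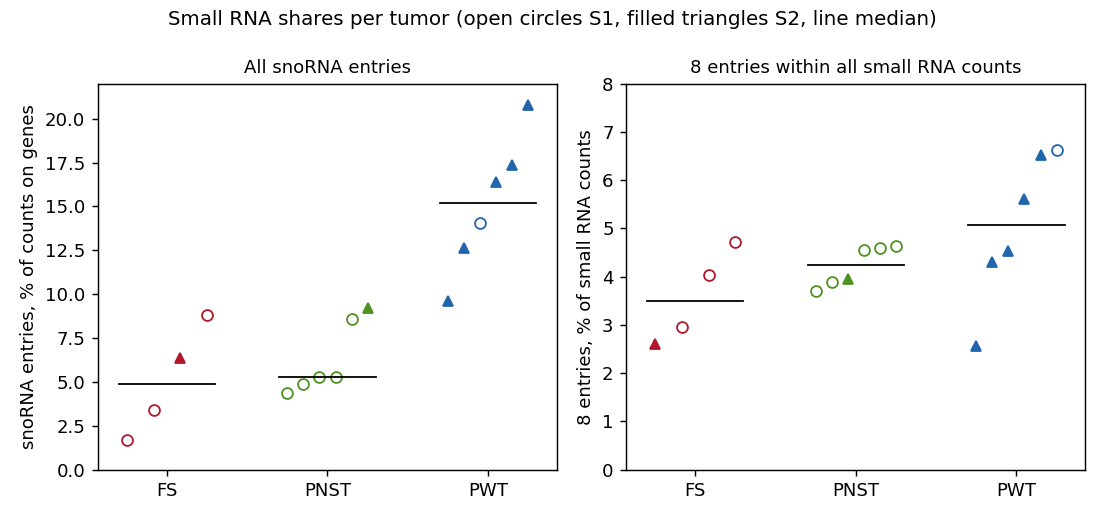
Left, counts on all snoRNA entries as a percent of counts on genes; right, counts on the 8 entries as a percent of counts on all small RNA entries, per tumor and by molecular identity. Open circles are S1 tumors, filled triangles S2 tumors and lines group medians. By molecular identity the snoRNA share is 9.61% or more in every PWT and 9.21% or less elsewhere. The share of the 8 entries overlaps between groups.

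Within that class the 8 entries ranked from first to 228 of 325 by log2 fold change in PWT. LOC119873485 ranked 1, LOC119866291 ranked 15 and LOC119873834 ranked 33. LOC119869901, LOC119866496, LOC119874346 and LOC119872409 ranked 81, 87, 88 and 95, and LOC119867575 ranked 228. As a share of all small RNA counts, the 8 entries took 2.56% to 6.62% in PWT, 2.60% to 4.73% in FS and 3.71% to 4.63% in PNST, so the groups overlapped. When library sizes, TMM and the fit were restricted to the 325 small RNA entries, the log2 fold change in PWT was 1.46 (SE 0.52) for LOC119873485, 0.81 (SE 0.22) for LOC119866291 and 0.70 (SE 0.70) for LOC119873834. It was between 0.08 and 0.27 for LOC119872409, LOC119866496, LOC119869901 and LOC119874346, and -0.62 (SE 0.45) for LOC119867575. The direction of LOC119867575 thus turned under this scaling. Whether the level per cell, the recovery of short RNA or the composition of the libraries lies behind the class-wide shift was not tested, and fewer cells of a type and less RNA per cell cannot be told apart in bulk tumors.

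**Figure D3:**
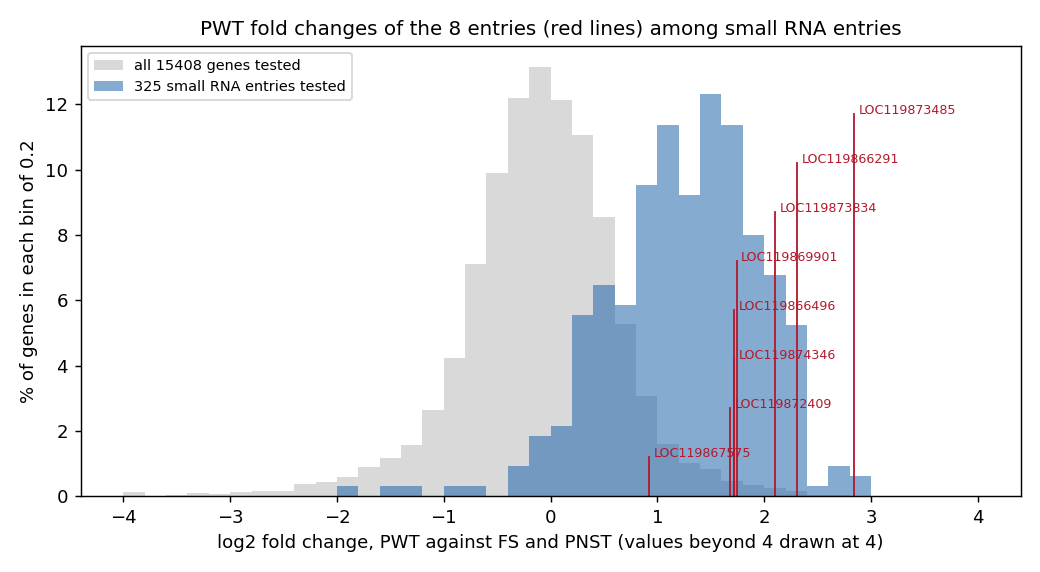
Distribution of log2 fold changes of PWT against FS and PNST pooled, as a percent of genes per bin of 0.2, for all 15408 genes tested (grey) and the 325 small RNA entries tested (blue). Red lines of differing height, for legibility, mark the 8 entries. The small RNA entries are shifted to the right of all genes, and 7 of the 8 lie above 1.

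The median shift was larger for shorter snoRNA entries. Of all tested snoRNA entries, the 97 under 80 bases had a median log2 fold change in PWT of 1.72, the 46 of 80 to under 110 bases 1.64 and the 106 of 110 bases or more 1.07. In the S2 against S1 tumors outside PWT the medians were 1.19, 1.00 and 0.21. LOC119867575, LOC119874346 and LOC119873834 belong to the shortest class and LOC119866496 to the longest. Reads per length of RNA fragment are not given by a count table, and the part of fragment length in these differences was not tested.

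None of the host genes tested was called in PWT, in a contrast that called 2.12% of all genes. In PWT against the other tumors the log2 fold change was -0.03 (SE 0.19) for AP1B1, 0.06 (SE 0.32) for RPL13A, 0.02 (SE 0.23) for KANSL2, -0.08 (SE 0.28) for ATP5F1B, -0.06 (SE 0.30) for LOC100688055 and -0.96 (SE 0.47) for LOC102156785. Of these 6 hosts, 0 passed edgeR (adjusted p 0.240 to 0.965; 0 at an unadjusted p under 0.05 and 0 by DESeq2). LOC119867461, at a mean of 1.42 CPM in PWT, was too low to test. RPL13A was at 498 ± 232 CPM in PWT (n = 6), 358 ± 188 in FS (n = 4) and 557 ± 69.6 in PNST (n = 6). ATP5F1B was at 198 ± 97.9, 202 ± 88.2 and 212 ± 54.4 CPM in the same order. Of 61 tested hosts of the other small RNA entries called higher in PWT, 0 were called by edgeR (9 at an unadjusted p under 0.05, 0 by DESeq2), with a median log2 fold change of 0.00.

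Other small RNA entries in the same host genes stood near the chosen ones. LOC119874347, which shares LOC100688055 with LOC119874346, was at 547 ± 176 CPM in PWT, 117 ± 43.0 in FS and 194 ± 96.9 in PNST, and rose (log2 fold change 1.74, SE 0.34, adjusted p 0.0201, edgeR). In RPL13A, beside LOC119869901, LOC119869908 rose (1.68, SE 0.32, adjusted p 0.0185), while LOC119869900 (1.55, SE 0.43, adjusted p 0.0590) and LOC119869903 (1.44, SE 0.45, adjusted p 0.0822) did not pass. In KANSL2, LOC119866495 did not pass (1.22, SE 0.47, adjusted p 0.141). In all, 2 of 5 tested neighbors were called by edgeR and 4 of 5 by DESeq2.

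**Figure D4:**
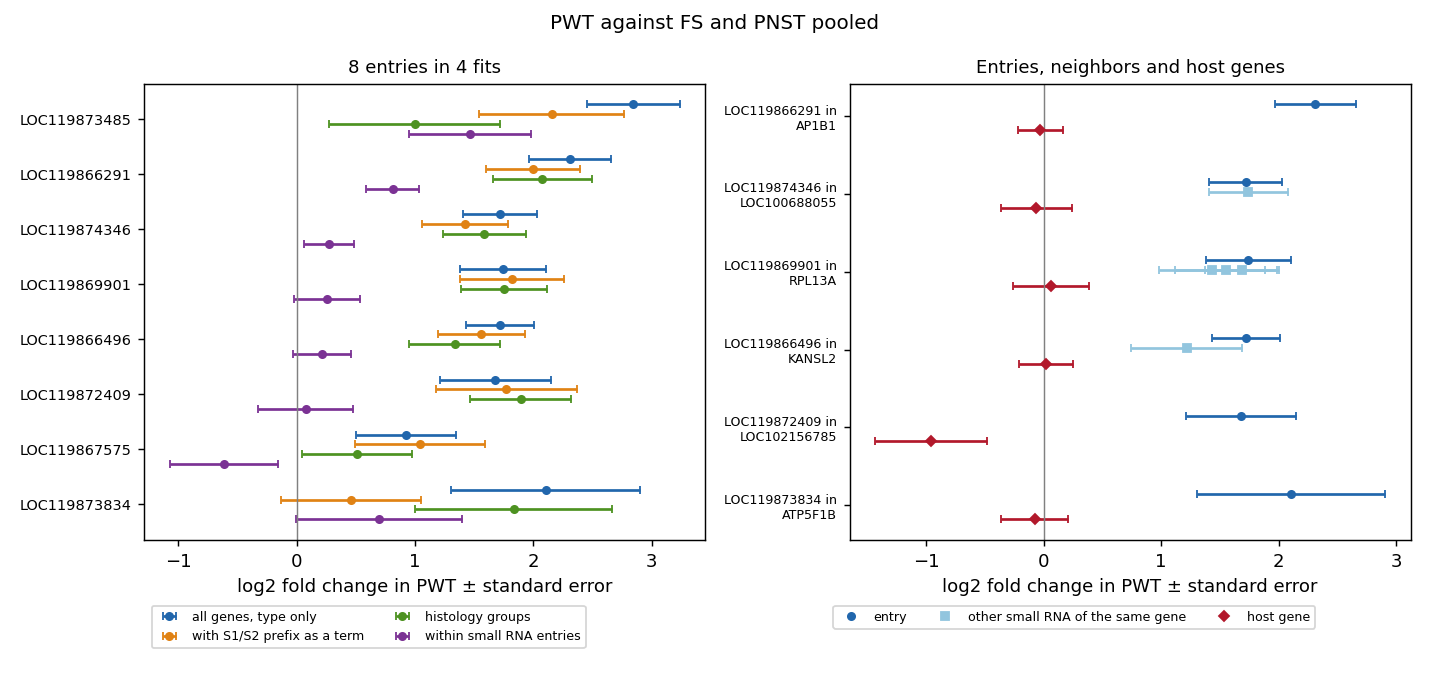
Log2 fold change in PWT against FS and PNST pooled, with bars for the standard error. Left, the 8 entries in 4 fits (all genes, with the prefix as a term, by histological groups, and within small RNA entries); right, 6 snoRNA entries with other small RNA entries of the same gene and their host genes. The values within small RNA entries are the lowest of the 4 fits for 6 entries, and the host genes lie near or below 0.

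Genes for the proteins that bind or process these RNAs were tested in the same contrast, in which 2.12% of all genes were called in either direction, and nothing particular to them is read from their counts. Of 37 tested proteins of spliceosomal snRNPs, 0 rose and 1 fell in PWT (median log2 fold change -0.19), SF3A2, a component of the U2 particle, at 10.5 ± 2.36 CPM in PWT against 25.7 ± 6.40 in FS and 18.9 ± 6.43 in PNST (-1.02, SE 0.26, adjusted p 0.0439). Of 20 snoRNP proteins and assembly factors 0 were called (median -0.19; 4 at an unadjusted p under 0.05; 0 by DESeq2). Among these, FBL, the methyltransferase of box C/D snoRNPs, was at 37.8 ± 12.2 CPM in PWT, 30.3 ± 15.1 in FS and 53.8 ± 14.1 in PNST (-0.24, SE 0.30, adjusted p 0.658). DKC1, the pseudouridine synthase of box H/ACA snoRNPs, was at 20.4 ± 8.78, 27.4 ± 3.87 and 28.2 ± 8.09 CPM (-0.43, SE 0.26, adjusted p 0.332). Of 45 genes of snRNA transcription, processing and transport 0 were called (median 0.03; 10 at an unadjusted p under 0.05; 0 by DESeq2). Of 18 genes of nuclear RNA decay 0 were called by edgeR and 1 by DESeq2 (median 0.19; 3 at an unadjusted p under 0.05), and of 74 ribosomal protein genes 0 were called (median -0.20; 7 at an unadjusted p under 0.05; 0 by DESeq2).

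The genes most like the 8 entries were other snoRNA entries. Likeness was taken as Spearman's rho over 16 tumors with the mean z-score of the 8, as a description, since all points share libraries and scaling. The highest were LOC119869908 (rho 0.974), LOC119864796 and LOC119869909 (0.965 each), LOC119874083 (0.956) and LOC119868002 (0.953), and 86 of the 100 most alike genes were small RNA entries. Among protein-coding genes the highest were RABGGTB (0.915) and GGPS1 (0.885), enzymes of protein prenylation and isoprenoid synthesis, and CREB1, MDM4 and UBE2B (0.882 each).

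Outside PWT, FS and PNST were compared in a fit of 3 groups over all 16 tumors, in which 7.13% of all genes were called in either direction (1099 of 15408) and 2 of the 8 entries. LOC119872409 was lower in FS, at 181 ± 86.8 CPM (n = 4) against 636 ± 179 in PNST (n = 6), with a log2 fold change of -1.83 (SE 0.49, adjusted p 0.0294, edgeR). It ranked 323 of 325 small RNA entries, near the bottom of the class in this contrast. LOC119867575 was higher in FS, at 111 ± 40.9 CPM against 41.0 ± 37.4, with a log2 fold change of 1.42 (SE 0.42, adjusted p 0.0480), and its low level in PNST was already known when the list was drawn up. The call for LOC119867575 held in 2 of 16 fits that each left out 1 tumor, with adjusted p up to 0.124. For LOC119872409 it held in 12 of 16, up to 0.0747. The other 6 entries did not pass, with log2 values from -0.53 (LOC119866496, SE 0.37, adjusted p 0.421) to 1.30 (LOC119873834, SE 1.01, adjusted p 0.471). For LOC119866291 the difference was 0.02 (SE 0.46).

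The prefix was compared in the 10 tumors outside PWT, S2-06 and S2-07 against 8 S1 tumors with type as a term, and 0 of 15408 genes (0%) were called by edgeR, with 1795 at an unadjusted p under 0.05 and 168 called by DESeq2. None of the 8 entries passed. LOC119873834 differed most, at 50.4 CPM in S2-06 and 29.1 in S2-07 against 0.85 to 7.17 in the S1 tumors, with a log2 difference of 3.54 (SE 0.66, adjusted p 0.269, edgeR). DESeq2 called it (adjusted p 0.00537). It ranked first of 325 small RNA entries, and its levels by prefix were in view when the list was drawn up, so this is a description. LOC119874346 and LOC119866291 were 0.85 higher in S2 (SE 0.45 and 0.51), LOC119866496 0.35 (SE 0.49), LOC119873485 0.23 (SE 0.49) and LOC119869901 0.14 (SE 0.53). LOC119872409 was at 0.00 (SE 0.42) and LOC119867575 at -0.58 (SE 0.67). The other 242 snoRNA entries had a median of 0.72, with 78.9% above 0, against -0.04 and 47.4% over all genes tested. By edgeR, 74 of these 242 had an unadjusted p under 0.05 and 0 were called, and DESeq2 called 8 higher. With 2 S2 tumors outside PWT, sequencing group, tumor and dog cannot be told apart.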

How the data were processed

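RNA from 16 FFPE canine tumors was depleted of ribosomal RNA and sequenced on an Ion Proton, in 2 groups of libraries; whether these correspond to the S1 and S2 prefixes is not given in the labels. The authors aligned reads to ROS-canfam-01 with STAR2 and deposited raw counts per gene from htseq-count. Versions and strand setting are not given in the sources used here. Rows that name no gene were left out (no feature 41.8% to 66.7% of reads, not unique 9.11% to 31.6%). Runs of a tumor were summed. Biotypes, hosts and neighbors came from RefSeq UU_Cfam_GSD_1.0 by symbol (39178 of 41818 genes matched).

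Counts were filtered (at least 10 in at least 4 tumors), TMM-scaled and tested with edgeR 4.0.16 (R 4.3.3), with Benjamini-Hochberg adjustment, with DESeq2 1.42.0 and other settings as alternatives. The p-values measure the spread between tumors. The fits were tested on simulated data. The members and gene lists were chosen with earlier results of these data known, and the other genes named were the hosts, neighbors, genes with the smallest p in their class, and those most alike. No sequence was used.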

Additional observations from a re-analysis of the deposited data

Results flagged for a closer look

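For each of the 8 entries, the 4 FS and the 6 PNST and 6 PWT were searched for a tumor far from the others of its type (Dixon's gap over range). Of 24 groups, 7 held one. Chance gives one in about 1 of 20 independent groups of normally distributed values. The 8 entries share tumors and partly moved together, so that rate does not apply to these 24 groups. S2 tumors accounted for 3 of the 7: LOC119873834 was at 50.4 CPM in S2-06, against 1.10 to 7.17 in the other FS, and at 29.1 CPM in S2-07, against 0.85 to 6.91 in the other PNST, and LOC119866291 was at 66.1 CPM in S2-07, against 16.9 to 34.6 in the other PNST. S1-12, the FS with the fewest counts (507728), had the lowest LOC119873485 of the FS (1.84 CPM, from 1 count) and the highest LOC119869901 (3269 CPM). Of the PNST with identical labels, S1-04 had 116 CPM of LOC119867575, against 17.9 to 35.0 in the other PNST, and S1-05 had 298 CPM of LOC119872409, against 609 to 787 in the others.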

How the results depend on the processing

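The 5 entries called higher in PWT became 0 by histological groups, 0 with the prefix as a term and 0 within small RNA entries (a fit added after seeing the data), and 2 to 6 when 1 tumor was left out (2 without S2-04 and 2 without S2-11). The 108 other small RNA entries called became 60 with total counts, 58 without a count filter, 171 by DESeq2, 0 by histological groups, 0 with the prefix term, 4 within small RNA entries and 4 to 148 with 1 tumor left out. The 327 genes called became 179, 128, 858, 0 and 0 in the same first 5 settings and 11 (without S2-11) to 487 (without S2-07), with 14 without S2-04. The 1099 genes of FS against PNST became 0 by histological groups and 656 (without S1-10) to 1201. The 2 entries called became 1 with upper quartile factors, 1 with total counts, 1 without a filter, 1 with the first run only, 0 by histological groups and 0 to 2 with 1 tumor left out (0 without S1-02, S1-11, S2-06 or S1-10). For the prefix outside PWT, 0 genes became 14 without a filter, 168 by DESeq2 and 0 to 2 with 1 tumor left out, and 0 entries became 1 without a filter, 1 by DESeq2 and 1 within small RNA entries, LOC119873834 in each. Directions that turned belonged to differences not past the threshold. In FS against PNST they were LOC119873485 (1.67 by histological groups, 0.10 within small RNA entries), LOC119866291 (-0.0274 with upper quartile factors, -0.0905 without a filter, -0.0606 with S1-04 and S1-05 as 1 sample, -0.33 to 0.37 with 1 tumor left out) and LOC119873834 (-0.63 without S2-06, up to 2.63 with 1 tumor left out). For the prefix they were LOC119873485 (-0.67 within small RNA entries), LOC119866291 (-0.0912 to 1.44 with 1 tumor left out), LOC119869901 (-0.16 over all 16 tumors, -0.57 within small RNA entries, -0.54 to 0.60 with 1 tumor left out), LOC119866496 (-0.41 within small RNA entries, -0.19 to 0.72 with 1 tumor left out), LOC119872409 (0.0942 with total counts, 0.0329 with the first run only, -0.47 to 0.33 with 1 tumor left out) and LOC119867575 (-1.34 to 0.0033 with 1 tumor left out). The cause was not tested. In leave-outs of S2-06 or S2-07 the prefix rests on 1 S2 tumor, assumed to vary like the others. No paired analysis was possible because replicate numbers only name the tumors.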
